A study of Mus musculus with 6 samples.

Results

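Genes of fatty acid oxidation and of peroxisomes were examined in isolates of mouse alveolar type II cells, the surfactant-making cells of the lung epithelium, with and without Insig1. The 29 genes named from textbook knowledge, with earlier results of these data known, covered the regulators, the mitochondrial and the peroxisomal enzymes of the pathway. Every gene whose symbol is Pex followed by a digit was added, which gave 43 genes of the 18193 named singly on the array. One probe set, the brightest over the 6 arrays, stood for each gene. Of the 43 genes 42 lay above the filter on dim probe sets; the peroxin relative Pex5l did not, with signals from 69.9 to 316.9 on its brightest probe set, and was not tested.

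In the deleted group the mice carried SpC-rTTA, Otet-CRE, Insig1 flox/flox and Insig2-/-, so that doxycycline switched on Cre recombinase in cells using the surfactant protein C promoter and Insig1 was lost there. Control mice were Insig1 flox/flox and Insig2-/- but lacked either SpC-rtTA or Otet-CRE. Both groups therefore lacked Insig2, and Cre could be made in the deleted group alone. An effect of Cre itself and the loss of Insig1 cannot be told apart. Cells came from mice 2 months old, treated with doxycycline between E6.5 and E12.5 of gestation by the text attached to either group. Each array held 1 pool of RNA, with 3 independent pools per genotype; how many mice went into each pool is not known here. A p-value here sets the difference between groups against the spread between pools, which limma moderates over all genes. Any differences between mice within a pool are averaged and not measured.

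Fatty acids enter mitochondria as carnitine esters and are shortened by repeated rounds of dehydrogenation, hydration, a second dehydrogenation and thiolytic cleavage, the β-oxidation spiral. Peroxisomes shorten very long and branched chains with enzymes of their own, and peroxins, the Pex proteins, build the organelle and import its enzymes. The nuclear receptor PPARα, with the coactivator PGC-1α, raises the genes of both routes, while INSIG proteins restrain SREBP, the factor that drives lipid synthesis.

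The signals are linear MAS5 values, and the array medians lay between 426.4 and 478.8. The Insig1 signal was 2300, 3325 and 2960 in control pools and 1253, 1442 and 1750 in deleted pools, with every deleted pool the lower (log2 fold change -0.95 ± 0.18 SE, adjusted p = 0.068, limma). Its position relative to the floxed exons is not known here, so it may not check the deletion. The brightest Insig2 probe set also gave signal, though both groups were Insig2-/-. It read 2626.5, 2277 and 1843.7 in control and 2106.6, 1904.5 and 1930.5 in deleted pools. Which part of the Insig2 transcript it covers is not known here. Type II cell markers were high (Sftpc, surfactant protein C, at 80090 to 143129), with 0 of 9 passing the test (limma; 0 also at an unadjusted p under 0.05), but so were those of airway secretory cells (Scgb1a1 at 141333 to 197205), so the isolates were mixtures. In mixtures, fewer cells of a type and less RNA per cell cannot be told apart. The marker lists were chosen with earlier results of these data known. Of 14 macrophage markers tested 8 rose (limma). The summed signal of the 14 went from 52855 to 77560 in control pools to 128571 to 142722 in deleted pools. Chil3 was a large part of it, at 21383 to 34222 in control and 55259 to 60515 in deleted pools. No macrophage marker was near 0, the lowest single signal being 310.2. Of 10 airway markers 1 fell (limma), with sums of 432682 to 570130 against 374297 to 470698. Without adjustment 4 of these 10 were lower at a p under 0.05 (limma), and all 10 log2 fold changes lay below 0. Of 9 cardiac muscle markers 0 passed (limma), with 2 lower at an unadjusted p under 0.05 and sums of 12276 to 24882 against 9454 to 13932. Of 8 lymphocyte markers 0 passed (limma; 3 higher at an unadjusted p under 0.05), of 8 endothelial markers 1 rose, and of 8 mesenchymal markers 0 passed (limma; 1 lower unadjusted). For comparison, 0.625% of all genes tested passed as higher and 0.0232% as lower (limma). At an unadjusted p under 0.05 these shares were 6.05% and 6.02% (limma). The part of these cell types in the values below was not tested.

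Upstream sequence was searched for exact matches to motifs of the factors named above, among others. RefSeq promoter windows (GRCm38.p6) matched 35 of the 43 genes, with 39 start sites in all, and the 250 bases before each start were searched on both strands. The PPAR element, AGGTCA repeated directly with a single base between the copies, was in none of the 39 windows and in 0.0335% of all 32851 windows. These exact letters are so rare that an absence from 39 windows says nothing about the genes. The sterol regulatory element core TCACNCCAC, which SREBP binds, was in 1 window, that of Ehhadh, against 1.05% of all. The NF-Y box CCAAT was in 15 windows (38.5% against 33.8% of all) and the Sp1 box GGGCGG in 23 (59.0% against 32.7%). A match is a description and not a site, and a window without a match says only that these letters are not in it. The windows of Eci1, the gene with the largest change, of the neighbouring Acot1 and Acot2, and of Ehhadh are given 5′ to 3′ on the gene's strand, with matches to these motifs in either orientation in capitals. They lie at chr17:24426433-24426682 (plus strand), chr12:84009252-84009501 (plus), chr12:83987611-83987860 (plus) and chr16:21787835-21788084 (minus). In the Ehhadh window the match nearest the 5′ end is the sterol regulatory element core, read on the other strand, and no motif match overlaps another in these windows.
Eci1: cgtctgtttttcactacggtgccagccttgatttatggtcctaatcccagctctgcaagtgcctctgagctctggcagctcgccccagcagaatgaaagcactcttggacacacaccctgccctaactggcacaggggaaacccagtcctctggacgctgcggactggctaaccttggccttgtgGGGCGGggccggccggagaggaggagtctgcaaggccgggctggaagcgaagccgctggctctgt
Acot1: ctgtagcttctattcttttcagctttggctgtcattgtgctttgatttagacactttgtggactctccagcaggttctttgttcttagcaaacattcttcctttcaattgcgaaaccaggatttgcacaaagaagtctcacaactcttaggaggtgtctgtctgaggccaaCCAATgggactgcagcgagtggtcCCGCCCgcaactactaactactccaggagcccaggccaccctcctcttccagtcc
Acot2: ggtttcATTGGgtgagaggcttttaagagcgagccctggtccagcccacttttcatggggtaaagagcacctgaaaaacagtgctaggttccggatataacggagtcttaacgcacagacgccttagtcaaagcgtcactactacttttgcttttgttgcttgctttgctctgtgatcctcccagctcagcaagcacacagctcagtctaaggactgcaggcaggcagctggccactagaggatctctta
Ehhadh: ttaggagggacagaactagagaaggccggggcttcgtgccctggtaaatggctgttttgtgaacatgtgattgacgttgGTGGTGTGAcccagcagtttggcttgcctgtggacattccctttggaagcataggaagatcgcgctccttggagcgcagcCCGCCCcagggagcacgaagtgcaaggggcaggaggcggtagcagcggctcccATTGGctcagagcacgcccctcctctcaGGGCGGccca

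No gene of fatty acid oxidation or peroxisomes passed the threshold. Among the 42 tested, 0 rose and 0 fell at an adjusted p under 0.05 (limma), where 0.649% of the 12952 genes tested did (0.625% higher, 0.0232% lower), so that a count of 0 among 42 is near the background. At an unadjusted p under 0.05, 2 were higher (Eci1 and Acot2) and 0 lower, 4.76% of them against 12.1% of all genes (6.05% higher, 6.02% lower). Groups did not overlap for 3 of the 42, Decr1 and Hadha (higher) and Acadm (lower), against 17.1% of all genes. That count depends on the scaling: it was 8 with a common median, 5 with the mean over probe sets and 6 to 18 without single pools, and nothing is read from it here. The data limit how large a change could have been missed. The 95% interval lay inside a 2-fold change in either direction for 40 of the 42 genes (83.1% of all genes) and inside a 1.5-fold change for 28 (48.9% of all genes), and the exceptions to the wider bound were Eci1 and Pdk4. The plot of all intervals by role shows this. These bounds hold for the brightest probe set of each gene alone. Of 20 members with over 1 probe set past the filter, 10 had log2 fold changes all of the same sign. The largest spread between probe sets of a member was 0.94. Dimmer probe sets of Ppargc1a and Crat, both inside the 2-fold bound above, gave -0.83 ± 0.25 and -0.78 ± 0.31.

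**Figure D1:**
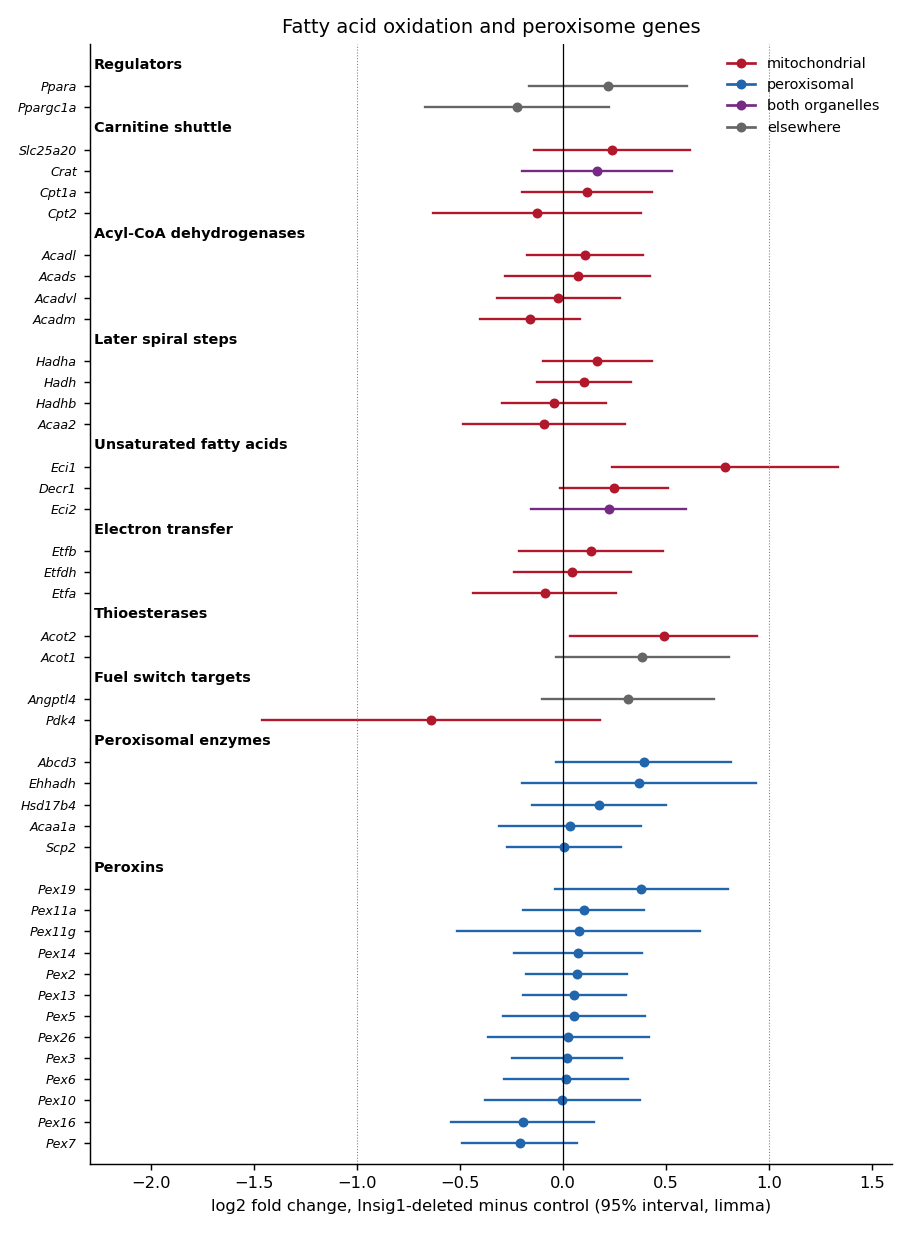
Log2 fold change (deleted minus control, x axis) of the 42 tested genes with the 95% interval of the limma fit, by role, coloured by organelle; dotted lines mark a 2-fold change either way. Eci1 reaches 0.79 and Pdk4 -0.64, and apart from the intervals of Eci1 and Acot2 every interval includes 0.

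Most log2 fold changes were small and above 0. The median over the 42 was 0.072 against -0.0049 over all genes, and 31 lay above 0 (73.8% against 49.1% of all genes). With the mean over a gene's probe sets in place of the brightest, 25 of 42 lay above 0. Control replicate 3 was the lowest of the 6 pools for 19 of the 42 (45.2%), against 23.4% of all genes. Without that pool 28 of 42 lay above 0 with a median of 0.056, and the count was 27 to 34 when any single pool was left out. Single pools also set several small values given here: without control replicate 3 Ppara was 0.097 and Hadha 0.077, and without deleted replicate 1 Cpt1a was 0.0017 and Hsd17b4 0.026. The typical spread within a genotype was slightly smaller than for other genes, with a median SD of 0.17 on the log2 scale against 0.21 over all genes. The genes were not matched for signal level, and MAS5 leaves dim probe sets noisy. The lowest signal was 440.5 among the tested members and 25 over all genes. The shares of intervals inside a bound, given above, carry the same limit.

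The regulators gave no common direction on their brightest probe sets. Ppara, which encodes the receptor PPARα, had signals of 1092, 1062 and 837.4 in control pools and 1075, 1161 and 1224 in deleted pools. The groups overlapped, with control replicate 3 low and deleted replicate 3 high (log2 0.22 ± 0.17 SE, adjusted p = 0.67, limma). Ppargc1a, which encodes PGC-1α, had 1337, 1322 and 2097 in control and 1353, 1250 and 1379 in deleted pools on its brightest probe set, where control replicate 3 alone stood high (log2 -0.22 ± 0.20, adjusted p = 0.72, limma).

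The 5 probe sets of Ppargc1a all pointed down but by different amounts. Tested among 27022 probe sets, their log2 fold changes from the brightest down were -0.22, -0.38, -0.83, -0.65 and -0.31, and 3 of the 5 had an unadjusted p under 0.05. On probe set 2, signals were 1470, 1608 and 1693 in control and 1271, 1254 and 1134 in deleted pools. On probe set 4 they were 1242, 1151 and 1360 against 951.1, 761.2 and 696.2 (log2 -0.65 ± 0.18, adjusted p = 0.27, limma). The groups did not overlap on probe sets 2, 3 and 4, with the deleted pools lower, though none passed after adjustment and the smallest adjusted p was that of probe set 4. Which part of the transcript each covers is not known here. For comparison, groups did not overlap for 17.1% of all genes, and 12.1% had an unadjusted p under 0.05 (limma). These shares are over genes by their brightest probe set, and the shares over all probe sets are not known here. The 5 probe sets read a single gene in the same pools, so they are not independent measurements of a fall. They were singled out after their values were seen.

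**Figure D2:**
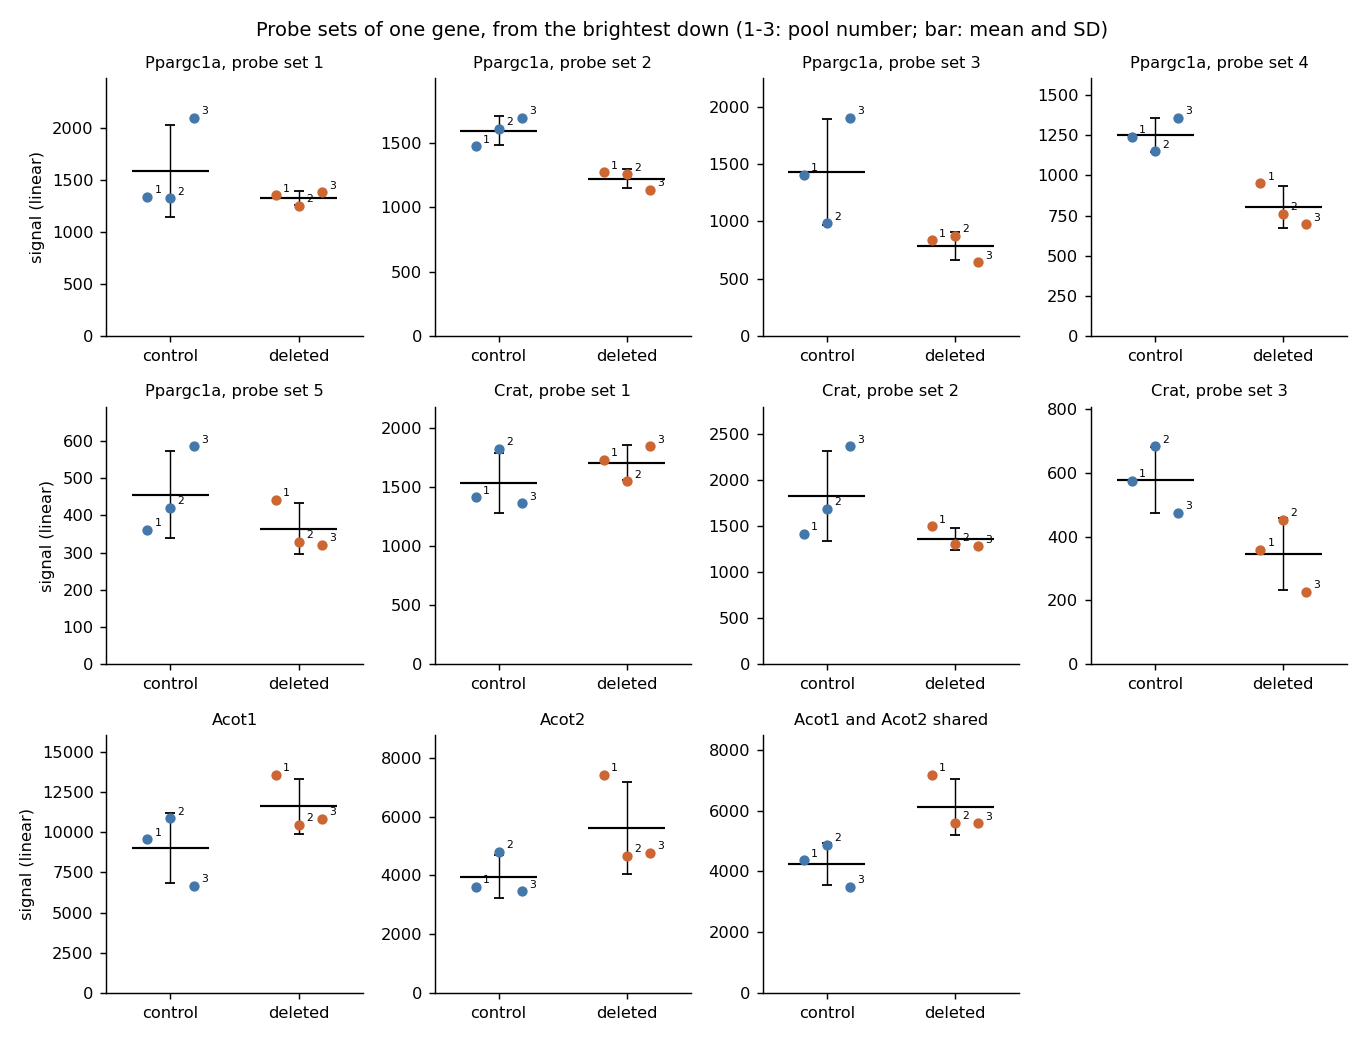
Deposited signal (y axis, linear) in each control and deleted pool for the 5 probe sets of Ppargc1a and the 3 of Crat, numbered from the brightest, for Acot1 and Acot2, and for the probe set the last 2 share; points are pools with their number, bars the mean and SD. The deleted pools are below the controls on Ppargc1a probe sets 2 to 4 and overlap them on the brightest, at 1250 to 1379 against 1322 to 2097.

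Genes of the carnitine shuttle, which carries fatty acids across the mitochondrial membranes, lay between -0.13 and 0.24 on their brightest probe sets. Cpt1a, the gated entry step, had signals of 3846, 4187 and 4738 in control and 5404, 4216 and 4276 in deleted pools. Deleted replicate 1 was the highest of all and the other deleted pools lay among the controls (log2 0.12 ± 0.14, 95% interval -0.20 to 0.43, adjusted p = 0.80, limma). Slc25a20, the carnitine-acylcarnitine translocase of the inner membrane, had 4605, 6787 and 4543 in control and 6806, 6091 and 5605 in deleted pools, with control replicate 2 among the deleted (log2 0.24 ± 0.17). Its other probe set gave 0.32. Cpt2, the transferase inside the inner membrane, had a log2 fold change of -0.13. Crat, the carnitine acetyltransferase of mitochondria and peroxisomes, had probe sets that disagreed in sign, at 0.16, -0.39 and -0.78 from the brightest down, and the smallest adjusted p was 0.44 (limma). On the dimmest all deleted pools lay below all controls, at 226.9 to 452.1 against 474.6 to 682.6. Groups did not overlap for 17.1% of all genes by their brightest probe set.

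The acyl-CoA dehydrogenases, which open each round of the spiral for chains of different length, showed no common direction. Acadm, the medium-chain enzyme, had signals of 13181, 12573 and 13028 in control and 12216, 12139 and 10412 in deleted pools. Its control pools lay close together and above all deleted pools (log2 -0.16 ± 0.11, 95% interval -0.40 to 0.080, adjusted p = 0.60, limma). The long-chain Acadl (0.11), the short-chain Acads (0.070) and the very-long-chain Acadvl (-0.023) overlapped between groups. For each of the 4 dehydrogenases the interval lay inside a 1.5-fold change.

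The later steps of the spiral were as steady. Hadha, the hydratase and dehydrogenase subunit of the trifunctional protein, had signals of 5541, 5207 and 4461 in control and 5763, 5656 and 5581 in deleted pools. The deleted pools lay together just above the highest control, and control replicate 3 was the lowest (log2 0.17 ± 0.12, adjusted p = 0.63, limma). Its partner Hadhb, the thiolase subunit, gave -0.044, the short-chain dehydrogenase Hadh 0.10 and the thiolase Acaa2 -0.092, each with overlapping groups. All 4 intervals lay inside a 1.5-fold change. The electron transfer genes, which pass electrons from the dehydrogenases to the respiratory chain, also overlapped: Etfb had 8268, 9324 and 6221 in control and 8964, 8999 and 7868 in deleted pools (log2 0.13 ± 0.15, and -0.031 without control replicate 3), while Etfdh gave 0.045 and Etfa -0.090.

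The 3 genes for unsaturated chains all lay above 0, and one of them had the largest difference of the whole set. Eci1, the mitochondrial enoyl-CoA isomerase that moves double bonds so that unsaturated fatty acids can go through the spiral, had signals of 4035, 7556 and 3704 in control and 7331, 9082 and 8722 in deleted pools. The difference was 1.73-fold (log2 0.79 ± 0.24 SE, 95% interval 0.24 to 1.34, adjusted p = 0.25, limma). Control replicate 2 lay among the deleted pools, which kept the groups from separating. Without that pool the log2 fold change was 1.11 with an adjusted p of 0.0062, and with array weights 0.91 with an adjusted p of 0.041 (limma), settings under which 477 and 259 genes were called in all. Without control replicate 3, its lowest pool, the value was 0.60 with an adjusted p of 0.35 (limma). With the replicate number as a block the adjusted p was 0.080 (limma). Over all alternatives the adjusted p ran from 0.0062 to 0.64 (limma). Eci1 has a single probe set, so no other measurement of it can be set beside this one. Macrophage markers moved in the same direction (sums given above), and their part in it was not tested.

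Decr1, the dienoyl-CoA reductase that works beside the isomerase, had signals of 3185, 3480 and 2998 in control and 3934, 3877 and 3636 in deleted pools. All deleted pools lay above all controls by a small margin (log2 0.25 ± 0.12, adjusted p = 0.43, limma), and its other probe set gave 0.20. Eci2, an isomerase found in both organelles, gave 0.22 with overlapping groups. Control replicate 3 was the lowest pool for all 3 genes.

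The thioesterases, which release free fatty acid from its coenzyme A ester and are strongly PPARα-responsive in liver, lay higher. Acot2, the mitochondrial form, had signals of 3605, 4791 and 3454 in control and 7427, 4666 and 4766 in deleted pools. The difference was 1.40-fold (log2 0.49 ± 0.20, 95% interval 0.036 to 0.94, adjusted p = 0.38, limma). Deleted replicate 1 stood high, and control replicate 2 lay above the other deleted pools. Without deleted replicate 1 the log2 fold change was 0.27. Acot1, the cytosolic form encoded next to it, had 9572, 10870 and 6655 against 13594, 10467 and 10834 (log2 0.38 ± 0.19), again with deleted replicate 1 the highest. These genes are near-identical copies, so hybridisation of the transcript of one to the probes of the other is possible and their values are uncertain.

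Pdk4 and Angptl4, grouped here as fasting targets, did not pass the test. Pdk4, the kinase that shuts off pyruvate entry into the citrate cycle, had signals of 13638, 5288 and 13237 in control and 9147, 4605 and 5993 in deleted pools. Replicate 2 was the lowest in each genotype and the groups overlapped (log2 -0.64 ± 0.36, 95% interval -1.46 to 0.18, adjusted p = 0.52, limma). Its within-genotype SD of 0.65 was the largest of the set, so these 6 pools do not bound its change to less than 2-fold. Without control replicate 2 the value was -1.09 (adjusted p = 0.051, limma), and without control replicate 1 it was -0.40, so it depends on single pools. With the replicate number as a block the adjusted p was 0.13 (limma). The log2 fold changes of the cardiac muscle and airway markers lay below 0 as well, with 0 of 9 and 1 of 10 passing (limma), and their part in the Pdk4 value was not tested. Angptl4, the secreted inhibitor of lipoprotein lipase, gave 0.32 ± 0.19 with overlapping groups.

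**Figure D3:**
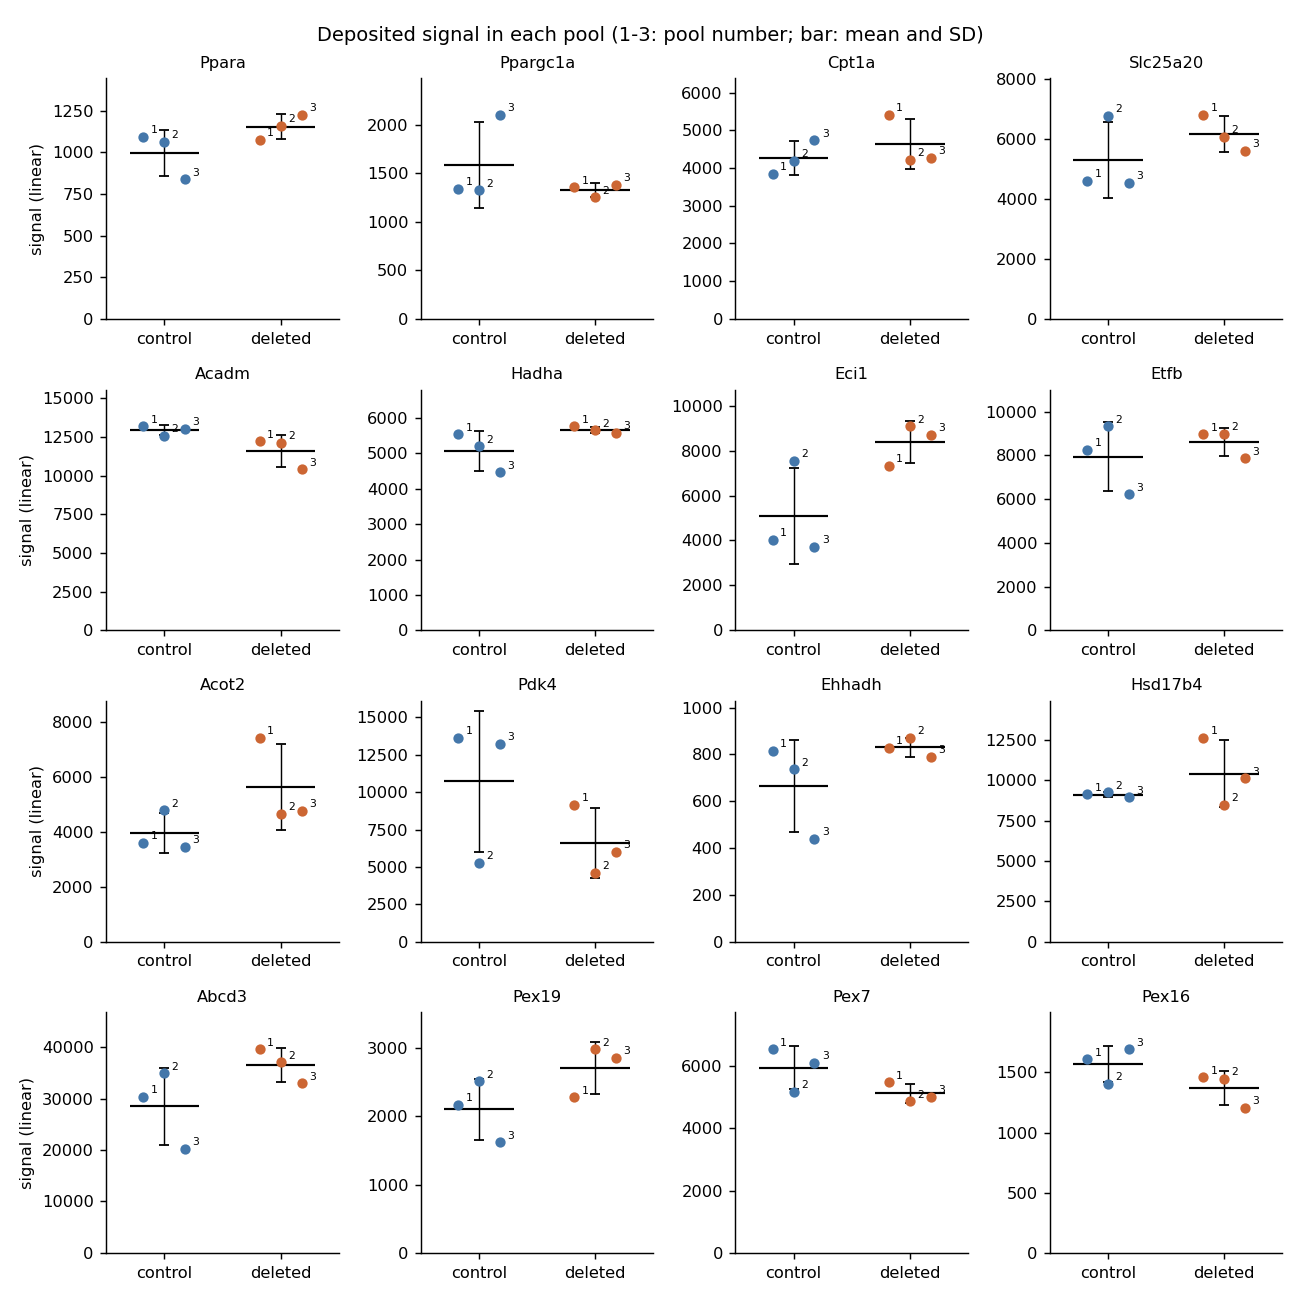
Deposited signal (y axis, linear, from 0) of 16 genes in the 3 control and 3 deleted pools; points are pools with their number, horizontal bars means and vertical bars SD. The groups overlap in every panel except those of Acadm and Hadha, and control replicate 2 of Eci1, at 7556, lies above the lowest deleted pool, at 7331.

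On their brightest probe sets the peroxisomal enzymes and their transporter all lay above 0, by small amounts. Abcd3, the membrane transporter that brings acyl-CoA into the organelle, had signals of 30353, 34923 and 20252 in control and 39612, 37043 and 33004 in deleted pools. Control replicate 2 lay above the lowest deleted pool and control replicate 3 far below the rest (log2 0.39 ± 0.19, 95% interval -0.035 to 0.82, adjusted p = 0.44, limma). Without control replicate 3 it was 0.16. Ehhadh, the bifunctional hydratase and dehydrogenase that responds strongly to PPARα in liver, had 815.8, 736.5 and 440.5 in control and 828.2, 870.9 and 789.9 in deleted pools. Here too the difference of 0.37 ± 0.25 went with the low value of control replicate 3, and without that pool it was 0.097.

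Hsd17b4, the bifunctional enzyme for branched and very long chains, had signals of 9129, 9250 and 8938 in control and 12627, 8486 and 10123 in deleted pools. The controls were tight while the deleted pools spread to both sides of them (log2 0.17 ± 0.14, adjusted p = 0.69, limma). The thiolase Acaa1a gave 0.035, and Scp2, which encodes the thiolase and sterol carrier SCPx, gave 0.0059 with an interval of -0.27 to 0.28. Dimmer probe sets did not all lie above 0. They gave 0.10 for Hsd17b4, -0.014 for Acaa1a, and 0.044, -0.45 and -0.15 for Scp2. A pair of probe sets that Acaa1a shares with its copy Acaa1b gave 0.29 and 0.26.

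Peroxins varied little. Of 13 tested, 11 had intervals inside a 1.5-fold change, and their median was 0.052. Pex19, the chaperone that brings membrane proteins to the peroxisome, had the largest difference, with signals of 2168, 2508 and 1615 in control and 2274, 2979 and 2852 in deleted pools (log2 0.38 ± 0.19, adjusted p = 0.45, limma). Its groups overlapped, and without control replicate 3 the value was 0.20. Its other probe sets gave 0.21 and 0.43. Pex7, the receptor for enzymes with an amino-terminal import signal, had 6537, 5178 and 6103 against 5469, 4864 and 5017 (log2 -0.21 ± 0.12). Pex16, which acts in forming the membrane, had 1609, 1404 and 1694 against 1459, 1445 and 1205 (log2 -0.20 ± 0.15). Both overlapped between groups. The import receptor gene Pex5 gave 0.052, its docking partners Pex13 0.054 and Pex14 0.075, and the division factor Pex11a 0.10. Pex2, a ring-finger subunit of the import machinery, was the tightest gene of the set on its brightest probe set, with signals from 3132 to 3388 over all 6 pools. Its dimmer probe set was not as tight, with signals from 600.5 to 919.6 (log2 -0.26 ± 0.20).

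Mitochondrial and peroxisomal genes did not come apart. The median log2 fold change was 0.086 over 18 mitochondrial genes and 0.053 over 18 peroxisomal genes, a difference of 0.032. As the median of each gene's deviation from its 6-pool mean, the mitochondrial minus peroxisomal value was 0.019, -0.0013 and -0.10 in control pools and 0.11, -0.0030 and -0.066 in deleted pools. The groups overlapped, and the spread within each genotype was larger than the difference. Without the Pex genes the peroxisomal median was 0.17, over 5 genes, and the difference -0.089.

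**Figure D4:**
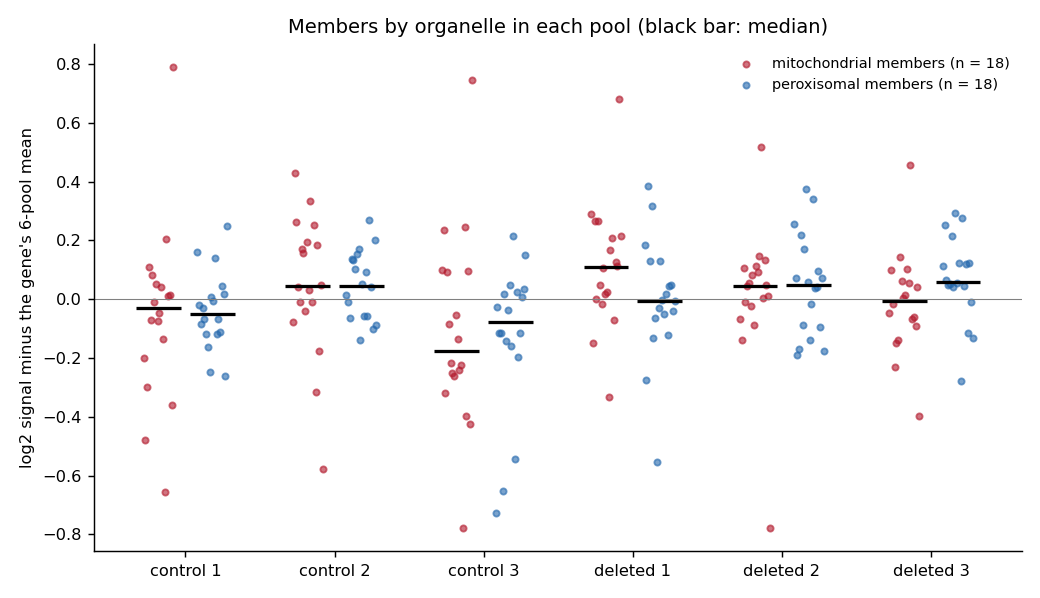
Log2 signal of each tested mitochondrial (18) and peroxisomal (18) gene minus that gene's mean over the 6 pools (y axis), by pool, with medians as black bars. Medians lie within 0.18 of 0 in every pool, with the lowest, -0.18, for mitochondrial genes in control replicate 3.

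Other genes of the same pathways gave 0 calls among 64 tested of 81 listed (limma), against 0.649% of all genes. Without adjustment 2 were higher and 3 lower, 7.81% of them against 12.1% of all genes, so both counts were no higher than the background. The nearest was Vnn1, a pantetheinase gene and PPARα target in liver, with signals of 4127, 2286 and 1580 in control and 6600, 8557 and 7397 in deleted pools. The groups were clearly separate at 3.04-fold (95% interval on the log2 scale 0.94 to 2.27), yet its adjusted p of 0.054 missed the threshold (limma); it ranged from 0.0097 to 0.25 over the alternatives. Macrophage markers moved with it, and their part was not tested. Fabp1, a fatty acid binding protein gene and another liver PPARα target, went the other way, at -1.10 ± 0.41, and Med1, a Mediator subunit gene, gave -0.25 ± 0.14.

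Among 29 further peroxisomal genes, Acox2, the oxidase for branched chains and bile acid precursors, had signals of 2384, 1447 and 3401 in control and 1179, 1341 and 1644 in deleted pools (log2 -0.72 ± 0.28, adjusted p = 0.36, limma; adjusted p = 0.030 without control replicate 2). The groups overlapped. The thiolase gene Acaa1b gave -0.56 ± 0.24, the peroxisomal protease gene Lonp2 0.27 ± 0.12, and catalase, Cat, -0.17 ± 0.15. Among 19 further mitochondrial genes, Hsd17b10 gave 0.30 ± 0.12, Pcca, a propionyl-CoA carboxylase subunit, -0.27 ± 0.12 and Mcee, the methylmalonyl-CoA epimerase, -0.33 ± 0.15. The fission genes Mff, Fis1 and Dnm1l lay between 0.034 and 0.13.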

How the data were processed

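Biotin-labelled RNA of 6 pools was hybridised to Affymetrix arrays, per the labels' protocols. The deposited table gives a linear signal intensity for each of 45101 probe sets, made with MAS5 per the submitters' processing notes; the scaling target is not stated, and the mean between the tails was about 1500 on every array. MAS5 summarises each array singly and leaves dim probe sets noisy. Analysis was on log2 of the deposited values, with a floor of 1 and no further normalization. Probe sets below the 40th percentile of mean log2 signal (8.08) were left out, and the brightest probe set naming a gene alone stood for it. The fit used limma 3.58.1 under R 4.3.3 (intensity trend, two-sided, Benjamini-Hochberg over 12952 genes, threshold 0.05) and was tested on simulated data. Values in every pool are given for members with an unadjusted p under 0.05, the smallest p of each role, Ppara, Ppargc1a, Cpt1a, Ehhadh and Hsd17b4, and the 3 Pex genes with the largest change. Of the other pathway lists, Cat and up to 3 genes of each with the smallest p are named, with pool values for Vnn1 and Acox2 and the log2 fold change alone for the rest. Single values for other genes, among them Decr1, Acot1, Crat and Pex2, were chosen after they were seen. Members and lists were chosen with earlier results of these data known. Alternatives changed the normalization, offset, variance model, weights, filter, probe set rule, threshold, block, organelle lists and pools used. Figures used matplotlib 3.10.9.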

Additional observations from a re-analysis of the deposited data

Results flagged for a closer look

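A probe set that names Acot2 and Acot1 together was left out of the comparison by gene, and drew attention because it was higher in every deleted pool than in any control pool. Its signals were 4362, 4868 and 3485 in control and 7187, 5595 and 5584 in deleted pools, a log2 fold change of 0.53 ± 0.16 (SE). Tested among 27022 probe sets, its adjusted p was 0.31 (limma), so it did not pass. Groups did not overlap for 17.1% of all genes by their brightest probe set. It names the same genes as the Acot1 and Acot2 values above, in the same pools, so it is not an independent measurement. Deleted replicate 1 was again the highest.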

How the results depend on the processing

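The count over all genes, 84, was 29 without an intensity trend, 259 with array weights, 132 with the replicate block and 129 at an adjusted p under 0.10, and ran from 15 (without deleted replicate 2) to 477 (without control replicate 2, 184 higher and 293 lower) when single pools were left out. The count of oxidation and peroxisome genes called was 1 with array weights, and 0 to 1 without single pools (1, Eci1, without control replicate 2); it was 0 under the other alternatives. The count of other pathway genes was 1 (Vnn1) with a common median, with array weights, with the replicate block and at an adjusted p under 0.10, and 0 to 2 without single pools (2, Vnn1 and Acox2, without control replicate 2). With a common median the median log2 fold change was 0.15 over the tested members and 0.13 over peroxisomal ones, and 34 of 42 members lay above 0, against 62.4% of all genes, whose median was 0.074. Without Pex genes the peroxisomal median was 0.17 and the mitochondrial minus peroxisomal value -0.089. Etfb ran from -0.031 (without control replicate 3) to 0.26 (without control replicate 2). Of the named genes' values under alternatives, 237 kept their direction and side of the threshold, 2 passed it (Eci1) and 1 turned (Etfb). In deviations from group means, each control pool correlated best with the deleted pool of its number, at 0.074, 0.040 and 0.15. Deleted replicate 2, however, correlated best with control replicate 1 (0.052). Whether the number marks a pairing is not known here, and the main fit did not use it. The cause of these shifts was not tested. The number of arrays limits the precision.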
